A study of Mus musculus with 2 samples.

Results

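The expression of 10 mouse genes of arginine, creatine and polyamine metabolism was followed in single leukocytes of the liver. The genes were the arginases Arg1 and Arg2, the nitric oxide synthase Nos2, the arginine transporter Slc7a2, argininosuccinate synthase Ass1, the creatine enzyme Gatm, and the polyamine enzymes Odc1, Srm, Sms and Sat1. They were found by their symbols among the 31053 genes of the count matrices, and all 10 were present. Their levels in these libraries were known when they were chosen, so differences between the libraries are given as descriptions. There were 2 libraries of C57BL/6 mouse liver cells: RES, from mice in which liver fibrosis had resolved, and Ctrl, from uninjured mice. For both, mononuclear cells were enriched on Histopaque, the cells of 5 mice were pooled, and the CD45+ CD11b+ fraction was sorted and put through 10x droplet sequencing of transcript 3′ ends. The agent that caused the fibrosis, the time since injury and the age of the mice were not given in the sources used here. With 1 library per group, no difference between RES and Ctrl could be checked against replicates, and the 95% intervals given below allow for counting error alone.

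Arginase splits arginine into ornithine and urea, nitric oxide synthase turns arginine into nitric oxide and citrulline, and Ass1 starts the route from citrulline back to arginine. Gatm moves the amidino group of arginine onto glycine in the first step of creatine synthesis. Ornithine is the substrate of Odc1, whose product putrescine is built up to spermidine by Srm and to spermine by Sms, while Sat1 acetylates spermidine and spermine for breakdown or export. Arg1 is abundant in hepatocytes, where it completes the urea cycle, and in mouse macrophages it is widely used as a marker of alternative activation.

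Transcripts were counted as unique molecular identifiers (UMIs), of which RES had 34119806 in 4278 barcodes and Ctrl had 20379164 in 3691 barcodes. Filters kept 4015 RES cells and 3344 Ctrl cells, with medians of 6381 and 4508.5 UMIs. Each cell was classed by how many of 8 marker genes per lineage it showed, and none of the 10 genes was such a marker. This gave 2107 RES and 1215 Ctrl monocytes and macrophages, 1491 RES and 1609 Ctrl natural killer (NK) cells, and 81 RES and 75 Ctrl B cells. The monocytes and macrophages were divided into classical monocytes (834 RES, 441 Ctrl), nonclassical monocytes (720 RES, 430 Ctrl), macrophages with C1q genes (334 RES, 114 Ctrl) and cells in which no subset list led (219 RES, 230 Ctrl). Levels are UMIs per 1000000 UMIs of the class (CPM), and ratios are RES over Ctrl. In all, 56 barcodes occurred in both libraries. For 54 of them the shallower copy was in Ctrl, with a median of 2.11% of the UMIs of the RES copy, and 27 of these lay among Ctrl monocytes and macrophages. For Arg1, Slc7a2 and Gatm the levels without these copies are given beside the results, and without them the log2 ratios of Odc1, Srm, Sms, Sat1 and Ass1 over all monocytes and macrophages were 0.77, 0.71, -0.07, -0.45 and -0.64.

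Arg1 had 66153 UMIs in RES monocytes and macrophages and 975 UMIs in Ctrl monocytes and macrophages, which is 3144 CPM in RES and 110.0 CPM in Ctrl. The RES level was 28.6-fold the Ctrl level (interval 26.8 to 30.5). Without the shallower copies, which held 87 of the 975 Ctrl UMIs, Arg1 stood at 3144 CPM in RES and 100.3 CPM in Ctrl, a ratio of 31.3. After each cell was thinned to 2000 UMIs, 34.7% of 2053 RES cells and 1.31% of 1148 Ctrl cells had an Arg1 UMI. Unthinned, the shares were 42.2% in RES and 3.54% in Ctrl. NK cells, taken as a class not known to make Arg1, gave 4.63% in RES and 0.466% in Ctrl after the same thinning, at median unthinned depths of 4096 UMIs in RES NK cells and 3353 UMIs in Ctrl NK cells, against 9681 and 7387 UMIs in RES and Ctrl monocytes and macrophages.

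Arg1 was higher in RES in every monocyte and macrophage class. C1q macrophages held the highest level in both libraries, 7299 CPM in RES and 683 CPM in Ctrl, a ratio of 10.7 (9.84 to 11.6), and 658 CPM in Ctrl without the shallower copies. In classical monocytes Arg1 had 21179 UMIs in RES and 18 UMIs in Ctrl, or 2303 CPM in RES and 5.18 CPM in Ctrl, a ratio of 445 (281 to 750.5). In nonclassical monocytes it stood at 1389 CPM in RES and 110.1 CPM in Ctrl, a ratio of 12.6 (11.3 to 14.1). The Ctrl level in nonclassical monocytes rested on 3 cells, with 157, 103 and 55 of its 319 UMIs. After thinning, 3 of 411 Ctrl nonclassical cells and 1 of 439 Ctrl classical cells had 3 or more Arg1 UMIs, shares whose intervals overlapped, so no order of these classes is read from Ctrl. In the cells with no leading subset Arg1 reached 3280 CPM in RES and 39.8 CPM in Ctrl. Of the 66 Ctrl UMIs there, 63 were in 22 shallower copies of RES barcodes, and 3 UMIs were left without them.

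**Figure D1:**
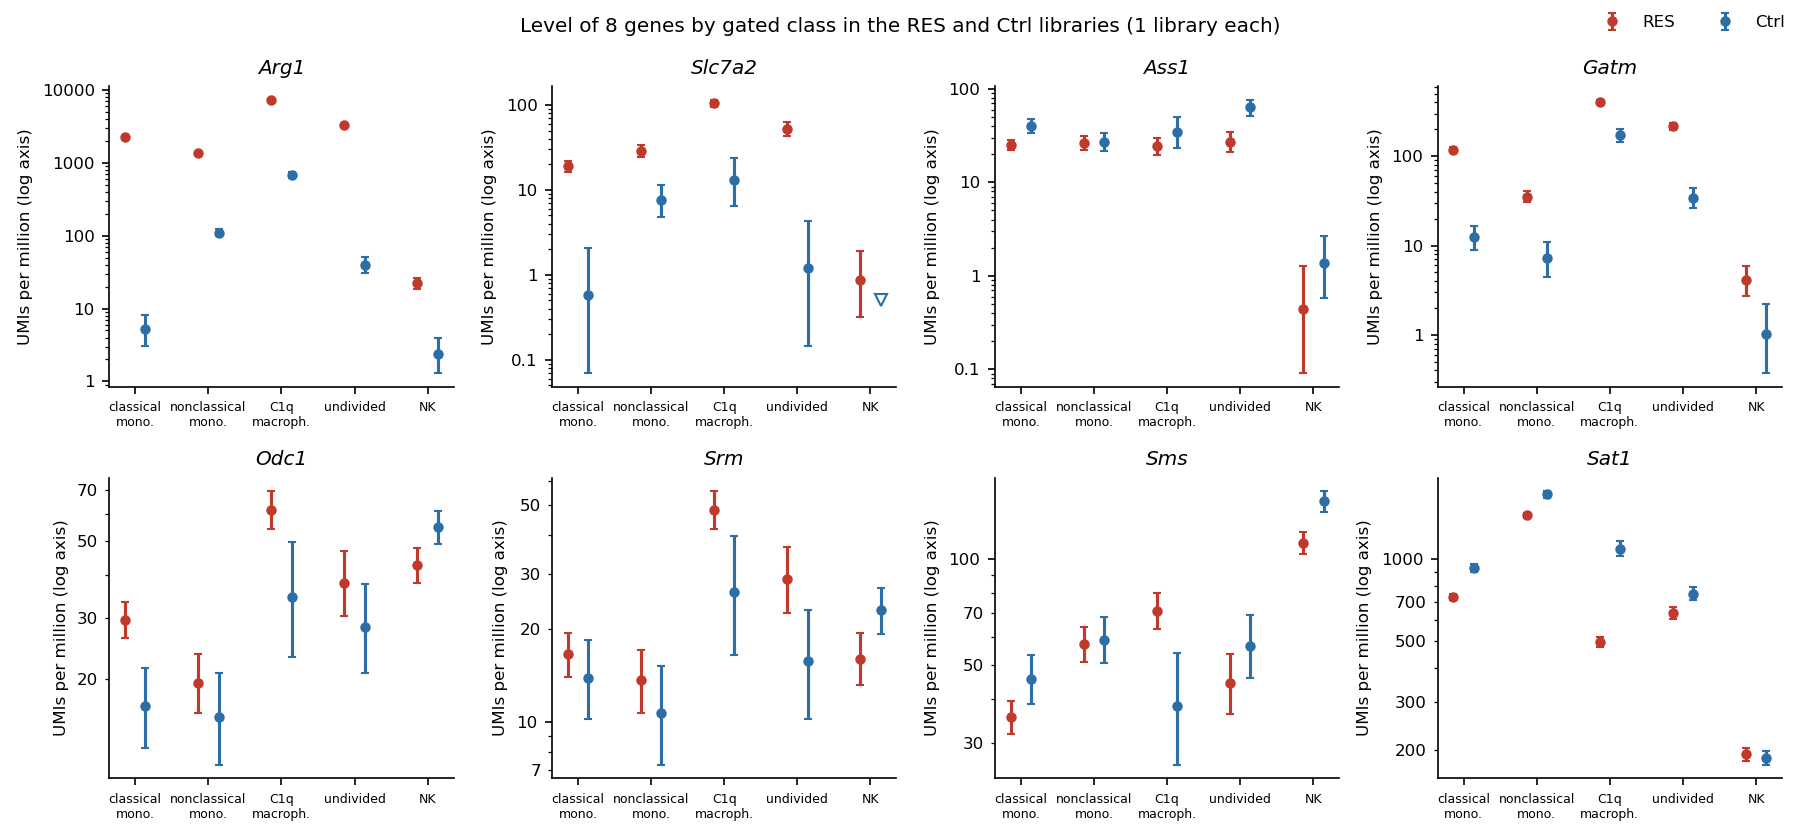
Level of 8 genes in 5 cell classes, in CPM on log axes, with RES (red) left of Ctrl (blue); points are 1 library each, bars are exact 95% Poisson intervals, and the open triangle marks a class with no UMI, drawn at the limit of 3 counts. Arg1, Slc7a2 and Gatm are higher in RES in all 4 monocyte and macrophage classes, Sat1 is lower in RES in the same 4, and NK cells are low in Arg1, Slc7a2, Gatm and Ass1.

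Arg1 was carried by a minority of cells in both libraries, and the Ctrl level by very few. After thinning, 30.0% of RES monocytes and macrophages (616 cells) and 0.784% of Ctrl ones (9 cells) had 3 or more Arg1 UMIs. By class, 78.9% of RES and 4.95% of Ctrl C1q macrophages reached 3 UMIs, as did 23.9% of RES and 0.228% of Ctrl classical monocytes and 10.9% of RES and 0.730% of Ctrl nonclassical monocytes. The highest 10% of RES cells held 56.9% of the thinned Arg1 UMIs. Before thinning and without the shallower copies, 635 of 2107 RES cells and 10 of 1188 Ctrl cells had 10 or more Arg1 UMIs. Those 10 Ctrl cells held 874 of the 888 Arg1 UMIs of Ctrl monocytes and macrophages (98.4%), with 13 to 157 UMIs each. Of these cells, 6 were C1q macrophages, 3 nonclassical and 1 classical monocytes. In RES the cells with 10 or more held 99.3% of the Arg1 UMIs, and the highest cell had 643. Among monocytes and macrophages, cells rich in Arg1 were thus common in RES and rare in Ctrl. Those with fewer than 10 Arg1 UMIs contributed little in either library. Outside this class, ungated cells without the shallower copies held 2397 Arg1 UMIs in RES and 240 in Ctrl.

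**Figure D2:**
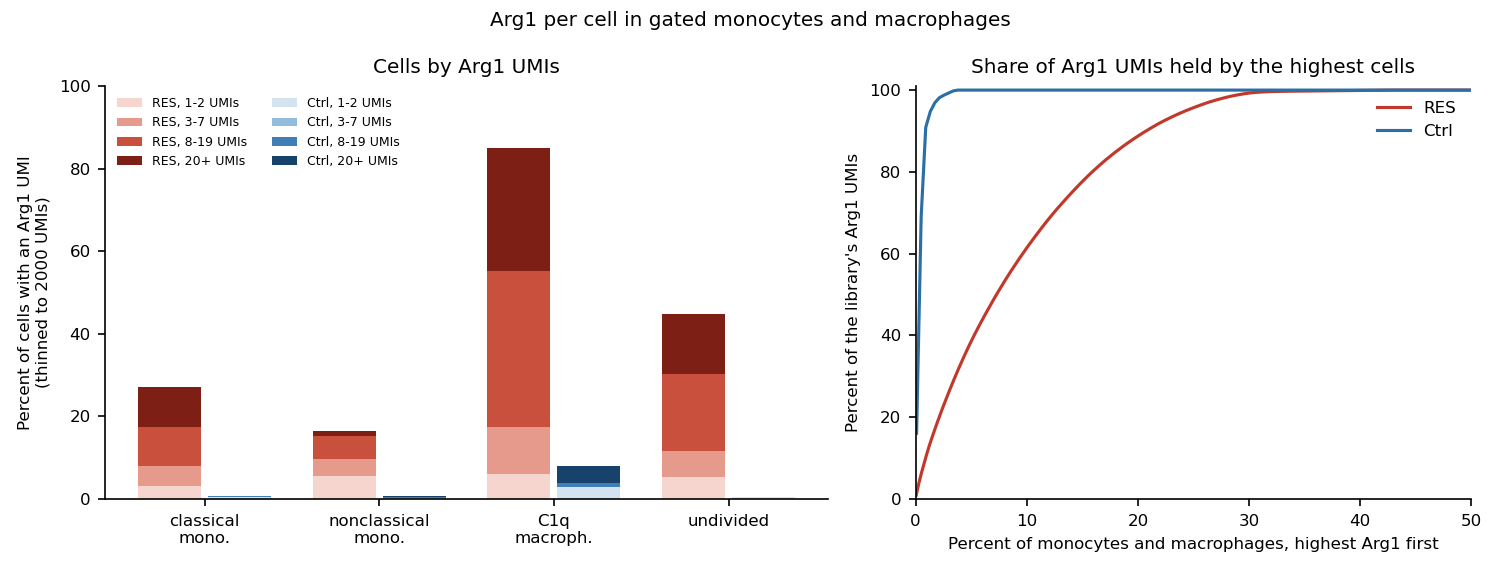
Left, percent of cells with an Arg1 UMI after thinning to 2000 UMIs, stacked by the number of Arg1 UMIs, for 4 classes with RES (red) left of Ctrl (blue). Right, cumulative percent of the Arg1 UMIs of each library's monocytes and macrophages against the percent of these cells, ranked from the highest. The Ctrl curve is steep, with 10 cells carrying most of the Arg1 UMIs of Ctrl monocytes and macrophages. The RES bars are tallest in C1q macrophages, where 84.9% of RES and 7.92% of Ctrl cells have an Arg1 UMI.

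The C1q gate did not hold like cells in the 2 libraries, since its own marker C1qa stood at 847 CPM in RES and 2227 CPM in Ctrl. Within the monocyte classes, Arg1 also went with macrophage markers. In RES nonclassical monocytes its level was 28.9 CPM in cells with none of the 8 macrophage markers, 83.2 CPM in cells with 1 and 2967 CPM in cells with 2 or more. In RES classical monocytes the same groups had 557, 494 and 3139 CPM. The Ctrl nonclassical cells had 0, 1.55 and 451 CPM, and the Ctrl classical cells stayed at 3.57, 8.61 and 2.13 CPM. Cells with 2 or more macrophage markers held 19710 of the 21179 Arg1 UMIs of RES classical monocytes and 7314 of the 7536 of RES nonclassical ones. Depth moved with the markers in RES nonclassical monocytes, at median UMIs of 4974.5, 4898.5 and 10520.5 over the same groups, and its part in this was not tested.

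Arg2, the mitochondrial arginase, was sparse. It had 57 UMIs in RES and 8 UMIs in Ctrl monocytes and macrophages, or 2.71 CPM in RES and 0.902 CPM in Ctrl, with a log2 ratio of 1.59 (0.51 to 2.87). Of 46 RES cells with an Arg2 UMI, 35 were classical monocytes, and 17 (37.0%) also had an Arg1 UMI, against 42.2% of all RES monocytes and macrophages. Nos2, the inducible nitric oxide synthase that competes with arginase for arginine, had 1 UMI in RES and 2 UMIs in Ctrl monocytes and macrophages. At these depths no level of Nos2 could be set against Arg1, and no difference between the libraries was detectable.

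Slc7a2, which encodes a cationic amino acid transporter that brings arginine into cells, was 10.0-fold higher in RES (7.23 to 14.4). It had 882 UMIs in RES and 37 UMIs in Ctrl monocytes and macrophages, or 41.9 CPM in RES and 4.17 CPM in Ctrl. Without the shallower copies the ratio was 10.6. Thinned, 4.29% of RES cells and 0.261% of Ctrl cells had a UMI. By class it stood at 105 CPM in RES and 13.1 CPM in Ctrl C1q macrophages, and at 28.7 CPM in RES and 7.60 CPM in Ctrl nonclassical monocytes. In classical monocytes it had 175 UMIs in RES and 2 UMIs in Ctrl, a ratio of 33.1 (9.02 to 275). The Ctrl signal was again that of single cells: without the shallower copies, 28 of 35 Ctrl UMIs lay in the 10 cells with 10 or more Arg1 UMIs, and 21 of them in 1 cell. NK cells had 6 UMIs in RES and none in Ctrl.

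Ass1, which condenses citrulline with aspartate, was lower in RES. It had 25.6 CPM in RES and 39.8 CPM in Ctrl monocytes and macrophages, with a log2 ratio of -0.64 (-0.84 to -0.44). The lower RES level was seen in classical monocytes, at 25.1 CPM in RES and 40.3 CPM in Ctrl, and in the cells with no leading subset, at 27.3 CPM in RES and 63.4 CPM in Ctrl. In nonclassical monocytes it was level, 26.5 CPM in RES and 27.3 CPM in Ctrl, with a log2 ratio of -0.04 (-0.45 to 0.37). In C1q macrophages the interval included 0 (log2 ratio -0.51, -1.12 to 0.14). NK cells had 3 UMIs in RES and 8 UMIs in Ctrl.

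Arg1 and Ass1 are also hepatocyte genes, so hepatocyte transcripts were measured beside them. The gate found 22 hepatocyte barcodes in RES and none in Ctrl, with a median of 712.5 UMIs, and they had 857 CPM of Arg1 and 2356 CPM of Ass1. Among monocytes and macrophages the 8 hepatocyte markers, all of them seen in both libraries, summed to 45.3 CPM in RES and 44.2 CPM in Ctrl. Alb (albumin) stood at 20.5 CPM in RES and 24.8 CPM in Ctrl. Single markers went different ways, with Fabp1 at 10.1 CPM in RES and 0.677 CPM in Ctrl, and Apoa1 at 4.37 and 9.02 CPM. Serpina1c, Apoc3 and Fgb were also higher in RES, and Ttr and Serpina1a were also lower. By class the sum of these markers was 30.9 CPM in RES and 17.8 CPM in Ctrl classical monocytes, and 79.1 and 88.4 CPM in nonclassical ones. It was 43.4 CPM in RES and 50.1 CPM in Ctrl C1q macrophages, and 27.3 and 19.3 CPM in cells with no leading subset. Alb in RES cells stood at 24.1 CPM with 3 or more thinned Arg1 UMIs and 17.1 CPM with none. The log2 ratio was 0.49 (0.20 to 0.78), and its cause was not tested. With every cell that had an Alb UMI left out, the log2 ratio of Arg1 was 4.70.

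Gatm was 5.47-fold higher in RES (4.83 to 6.22), and 5.52-fold without the shallower copies. It had 3453 UMIs in RES and 266 UMIs in Ctrl monocytes and macrophages, or 164 CPM in RES and 30.0 CPM in Ctrl, and 13.4% of RES cells and 3.75% of Ctrl cells had a UMI after thinning. As with Arg1, the level was highest in C1q macrophages, with 409 CPM in RES and 173 CPM in Ctrl, a log2 ratio of 1.24 (1.0 to 1.5). In classical monocytes it stood at 118 CPM in RES and 12.4 CPM in Ctrl, and in nonclassical monocytes at 35.2 CPM in RES and 7.25 CPM in Ctrl. NK cells had 4.11 CPM in RES and 1.02 CPM in Ctrl. Gatm was thus low in NK cells of both libraries and higher in RES in each monocyte and macrophage class.

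The promoters below, from 250 bases before to 50 bases after the RefSeq start on GRCm38.p6, are shown for 4 genes that went different ways: Gatm, which was higher in RES, Odc1, the entry to polyamine synthesis, and Sat1 and Ass1, which were lower. RefSeq promoters matched 5 of the 10 genes, and Arg1, Arg2, Nos2, Srm and Slc7a2 were not among them. Capitals mark 3 short motifs, searched on both strands: CCAAT, bound by the factor NF-Y; ACGTG, the core letters of the hypoxia response element; and CACGTG, the E-box of Myc and its relatives, which contains ACGTG on each strand.
Gatm, chr2:122611228-122611527 (minus strand): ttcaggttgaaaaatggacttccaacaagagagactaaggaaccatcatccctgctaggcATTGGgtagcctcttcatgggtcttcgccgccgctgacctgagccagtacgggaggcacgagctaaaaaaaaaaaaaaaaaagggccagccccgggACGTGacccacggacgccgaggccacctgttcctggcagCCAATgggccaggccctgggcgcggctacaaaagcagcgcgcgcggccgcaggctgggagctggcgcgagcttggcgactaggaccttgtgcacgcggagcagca
Odc1, chr12:17544623-17544922 (plus strand): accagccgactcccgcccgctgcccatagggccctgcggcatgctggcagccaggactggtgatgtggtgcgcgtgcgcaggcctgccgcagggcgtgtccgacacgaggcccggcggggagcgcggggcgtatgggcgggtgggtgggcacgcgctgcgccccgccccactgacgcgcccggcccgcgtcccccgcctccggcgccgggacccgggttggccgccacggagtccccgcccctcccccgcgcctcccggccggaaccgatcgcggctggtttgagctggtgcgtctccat
Sat1, chrX:155216400-155216699 (minus strand): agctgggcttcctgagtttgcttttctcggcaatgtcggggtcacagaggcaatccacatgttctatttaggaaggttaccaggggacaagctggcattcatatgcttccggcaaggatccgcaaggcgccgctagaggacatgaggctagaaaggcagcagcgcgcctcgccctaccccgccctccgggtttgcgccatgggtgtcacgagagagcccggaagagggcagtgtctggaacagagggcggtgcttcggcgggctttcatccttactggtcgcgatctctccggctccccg
Ass1, chr2:31470020-31470319 (plus strand): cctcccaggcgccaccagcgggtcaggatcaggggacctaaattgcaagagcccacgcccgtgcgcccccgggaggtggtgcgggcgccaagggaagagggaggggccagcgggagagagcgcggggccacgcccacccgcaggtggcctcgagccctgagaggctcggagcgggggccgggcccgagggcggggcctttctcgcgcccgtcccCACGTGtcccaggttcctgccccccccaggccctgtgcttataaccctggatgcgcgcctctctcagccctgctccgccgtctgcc
The Gatm promoter held CCAAT in 2 places (1 of them on the other strand, read as ATTGG) and ACGTG in 1 place. The Ass1 promoter held CACGTG in 1 place. The Odc1 and Sat1 windows held none of the 3 motifs. Of all 32851 promoters of this length, 37.4% held CCAAT, 19.6% held ACGTG and 7.15% held CACGTG, so such matches are common. On the GENCODE M21 annotation of the same assembly, Gatm spans chr2:122594467-122611303 on the minus strand, Arg1 spans chr10:24915221-24927484 on the minus strand, and Slc7a2 spans chr8:40862396-40922308 on the plus strand.

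The polyamine enzymes differed less between the libraries than Arg1, Slc7a2 and Gatm. Odc1, the rate-limiting step from ornithine to putrescine, stood at 34.2 CPM in RES and 20.2 CPM in Ctrl monocytes and macrophages, a log2 ratio of 0.76 (0.52 to 1.0). Srm, spermidine synthase, stood at 23.3 CPM in RES and 14.3 CPM in Ctrl, a log2 ratio of 0.70 (0.42 to 1.0). Sms, spermine synthase, stood at 49.0 CPM in RES and 51.4 CPM in Ctrl, a log2 ratio of -0.07 (-0.23 to 0.09). Sat1 was lower in RES, at 859 CPM in RES and 1171 CPM in Ctrl, a log2 ratio of -0.45 (-0.48 to -0.41). With each thinned cell given equal weight, the log2 ratio of Odc1 was 0.43 (-0.08 to 0.95), an interval that included 0. Those of Srm, Sms and Sat1 were 0.75 (0.13 to 1.41), 0.05 (-0.29 to 0.40) and -0.33 (-0.40 to -0.26).

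By UMI sums, all 4 polyamine enzymes were apart between the libraries in C1q macrophages. In this class many genes were, with 14.6% of 6331 genes at least 1.5-fold higher in RES and 14.8% lower. Odc1 had 61.6 CPM in RES and 34.6 CPM in Ctrl, Srm had 48.3 CPM in RES and 26.3 CPM in Ctrl (25.1 CPM without the shallower copies), and Sms had 71.1 CPM in RES and 38.2 CPM in Ctrl. Their log2 ratios were 0.83 (0.27 to 1.44) for Odc1, 0.88 (0.24 to 1.59) for Srm and 0.90 (0.37 to 1.47) for Sms. Sat1 went the other way, with 497 CPM in RES and 1093 CPM in Ctrl, a log2 ratio of -1.14 (-1.25 to -1.02). By these sums, the 3 enzymes that make polyamines were higher in RES C1q macrophages and the enzyme that acetylates them was lower. With each thinned cell given equal weight, the intervals of Odc1 and Sms in this class included 0, and those of Srm and Sat1 did not.

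Classical monocytes shared the direction for Odc1, with 29.7 CPM in RES and 16.7 CPM in Ctrl, and for Sat1, with 728 CPM in RES and 928 CPM in Ctrl. Their Sms was lower in RES, 35.6 CPM against 45.7 CPM in Ctrl, with a log2 ratio of -0.36 (-0.64 to -0.08). With each thinned classical monocyte given equal weight, the log2 ratio was 0.16 for Odc1 and -0.34 for Sms, and both intervals included 0. Sat1 stayed lower in RES, at -0.32 (-0.45 to -0.19). In nonclassical monocytes the intervals of Odc1, Srm and Sms all included 0. Sat1 was highest in this class in both libraries, 1450 CPM in RES and 1726 CPM in Ctrl.

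NK cells differed from the macrophages. Odc1 stood at 42.6 CPM in RES and 54.9 CPM in Ctrl NK cells, Srm at 16 CPM in RES and 22.9 CPM in Ctrl, and Sms at 111 CPM in RES and 145 CPM in Ctrl. The log2 ratios were -0.37 (-0.60 to -0.13) for Odc1, -0.52 (-0.89 to -0.14) for Srm and -0.39 (-0.53 to -0.25) for Sms. All 3 synthetic enzymes were lower in RES NK cells, and Sat1 was level at 193 CPM in RES and 188 CPM in Ctrl. Few NK cells were cycling (10 RES, 18 Ctrl, with 3 or more of 8 cell cycle markers), and in the other NK cells Odc1 stood at 42.3 CPM in RES and 53.5 CPM in Ctrl.

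**Figure D3:**
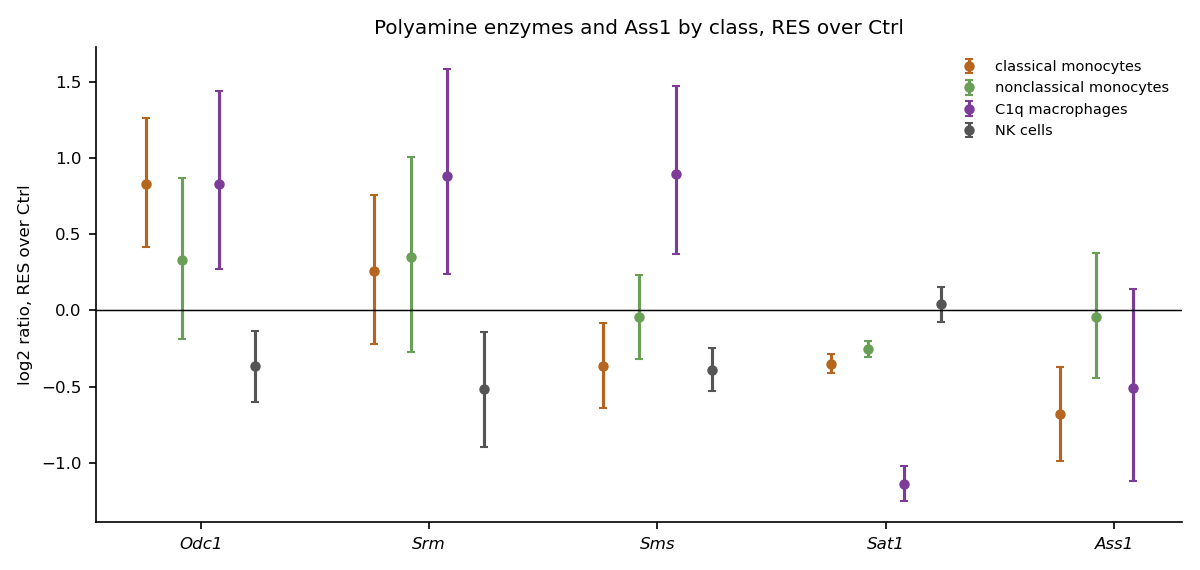
log2 ratio of RES over Ctrl for 4 polyamine enzymes and Ass1 in 4 classes; points are the ratio of UMI sums and bars exact 95% conditional binomial intervals. Ass1 in NK cells (11 UMIs in all) is not drawn. Srm and Sms lie above 0 in C1q macrophages, at 0.88 and 0.90, and below 0 in NK cells, at -0.52 and -0.39, and Sat1 is lowest in C1q macrophages, at -1.14.

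In these comparisons a gene was counted as higher or lower at 1.5-fold, with 10 CPM added to both levels, among genes at 20 CPM or more in either library. In monocytes and macrophages 3 of the 8 genes of the set that reached this level were higher in RES (Arg1, Gatm and Slc7a2), where 4.75% of 5952 genes were higher, and with 1 CPM added in place of 10 CPM 6 of the set were 1.5-fold apart. None of the 8 was lower, where 3.28% of genes were lower, and Slc7a2 and Srm reached the level only through RES. In C1q macrophages 6 of 8 were higher and 1 was lower, but there 14.6% of 6331 genes were higher and 14.8% were lower. In classical monocytes 2 of 6 were higher and none lower (3.83% of genes higher, 3.9% lower), and in nonclassical monocytes 3 of 6 were higher and none lower (3.44% and 1.86% of genes). In NK cells 1 of 5 was higher, Arg1, and none was lower (0.403% and 0.302% of genes). Of those counted as higher, Arg1 and Gatm in classical monocytes and Gatm and Slc7a2 in nonclassical monocytes reached 20 CPM only through RES. So did Slc7a2 in C1q macrophages and Arg1 in NK cells. These genes were chosen with these contrasts known, so nothing is read from these counts.

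B cells and dendritic cells added little. Arg1 had 888 UMIs in RES and 13 UMIs in Ctrl B cells, but 882 of the RES and all 13 of the Ctrl UMIs were in B cells that also showed 3 or more monocyte and macrophage markers. The 56 RES and 49 Ctrl B cells with at most 2 such markers had 6 Arg1 UMIs in RES and none in Ctrl. Only 27 RES and 33 Ctrl cells passed the gate for conventional dendritic cells, with 2 Arg1 UMIs in RES and none in Ctrl. A wider gate, added after the data were seen, took cells with a UMI of Flt3 or Zbtb46 and at least 2 dendritic cell markers. It gave 261 RES and 298 Ctrl cells. Cells already gated as monocytes and macrophages were not left out of it, so its levels are not those of dendritic cells alone. There Arg1 stood at 328 CPM in RES and 55.2 CPM in Ctrl, Gatm at 83.1 CPM in RES and 43.6 CPM in Ctrl, and Sms at 54.7 CPM in RES and 94.5 CPM in Ctrl. In NK cells Arg1 reached 22.2 CPM in RES and 2.37 CPM in Ctrl, which is 0.705% of the level in RES monocytes and macrophages and 2.16% of that in Ctrl ones. For the macrophage genes Lyz2, Apoe and C1qa the same share was 1.22%, 1.97% and 1.45% in RES and 1.42%, 2.04% and 2.63% in Ctrl. For Spp1 it was 2.89% in RES and 43.4% in Ctrl, where Spp1 stood at only 16.8 CPM in monocytes and macrophages.

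Co-expression was read in the thinned cells, grouped by their Arg1 UMIs. The RES groups had 1341 cells with none, 96 cells with 1 or 2, 120 cells with 3 to 7, 279 cells with 8 to 19, and 217 cells with 20 or more. Arg1 UMIs were taken out of the total, and the levels below come from all UMIs of the same cells. Gatm climbed through these groups, at 20.1, 112, 227, 320.4 and 582 CPM. Slc7a2 did so too, at 0.828, 5.57, 37.9, 81.8 and 190.1 CPM. Pooled over classes, cells without Arg1 thus had little of either gene, and the cells with the most Arg1 had the most of both. In the 50 RES C1q macrophages without Arg1, however, Gatm stood at 106 CPM.

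Among the polyamine enzymes, Odc1 had 19.95, 31.2, 36.2, 55.2 and 71.8 CPM over the same groups, and Srm had 14.6, 16.7, 26.1, 33.7 and 50.8 CPM. Sms was at 37.1 CPM in the cells without Arg1 and between 57.9 and 71.0 CPM in the other groups. Sat1 ran down the groups, at 1114, 800.4, 612, 479 and 389.8 CPM. Pooled over classes, Odc1 and Srm thus climbed and Sat1 went down through the groups. Sms was higher in every group with Arg1 than in the cells without it. Ass1 stayed between 18.7 and 35.6 CPM with no order.

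**Figure D4:**
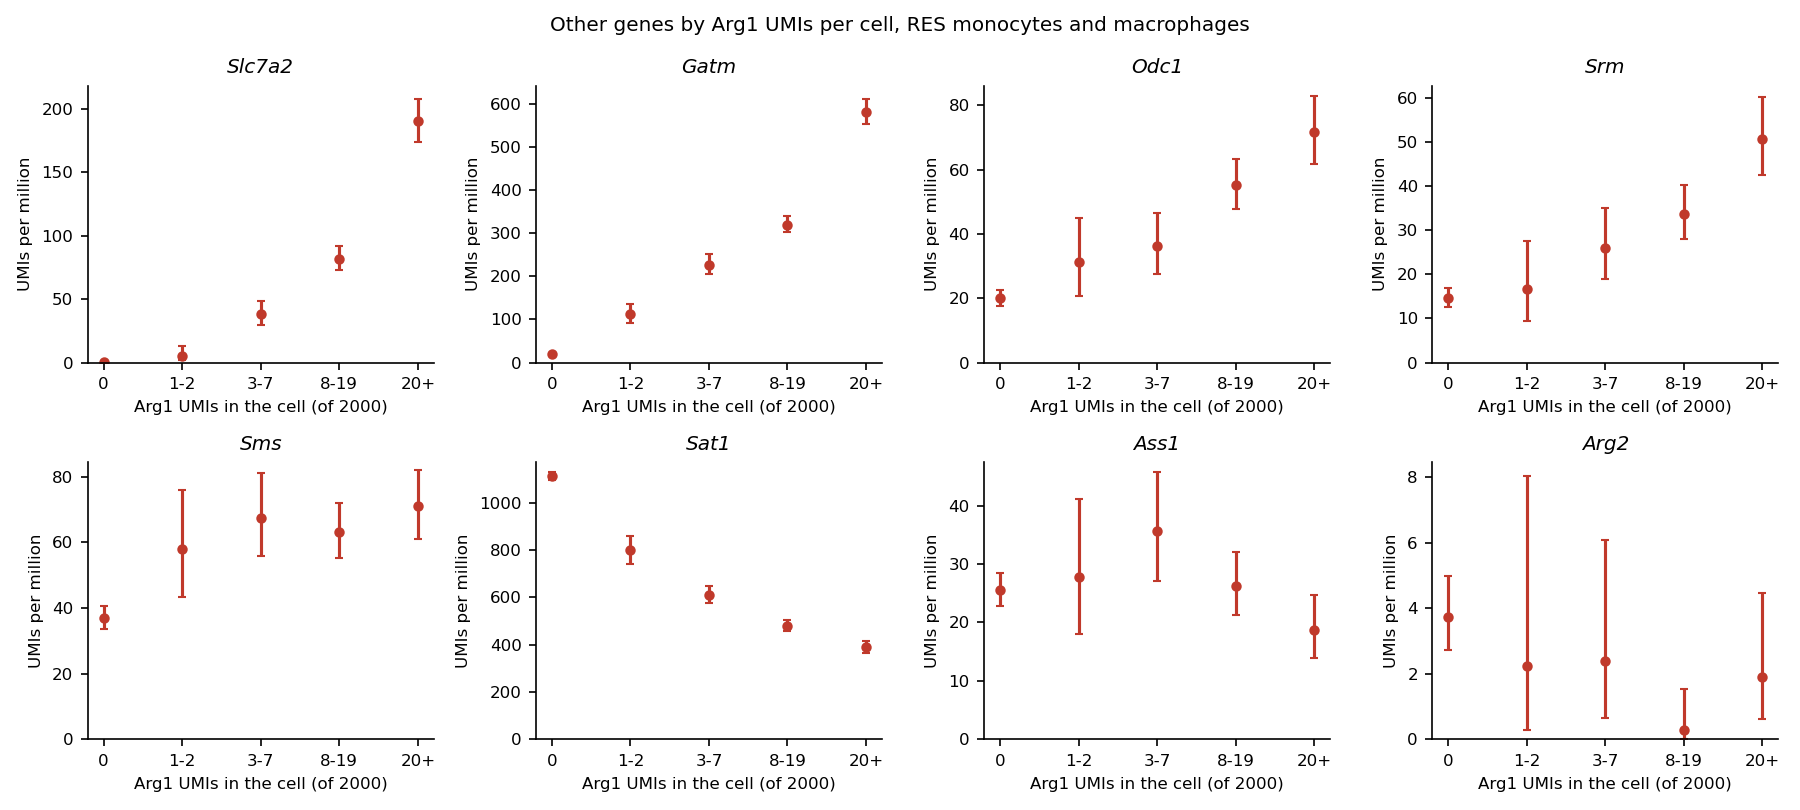
Level of 8 genes, in CPM without Arg1, in RES monocytes and macrophages grouped by their Arg1 UMIs after thinning to 2000 UMIs; bars are exact 95% Poisson intervals. Slc7a2 and Gatm climb to 190.1 and 582 in the cells with 20 or more Arg1 UMIs, Sat1 goes down to 389.8, and Ass1 and Arg2 show no steady order.

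RES cells with 3 or more Arg1 UMIs (616 cells) were then set against RES cells with none (1341 cells). Gatm stood at 387 CPM in the cells with Arg1 and 20.1 CPM in the cells without, a log2 ratio of 4.27 (4.08 to 4.46), and of 4.62 (4.19 to 5.09) from the thinned UMIs alone. Of the thinned cells, 37.0% of those with Arg1 and 2.83% of those without had a Gatm UMI. Slc7a2 had 858 UMIs in the cells with Arg1 and 10 UMIs in the cells without, or 108 CPM and 0.828 CPM, a log2 ratio of 7.03 (6.14 to 8.10). Its UMI was seen in 13.96% of thinned cells with Arg1 and in 0.0746% of those without. Nearly all UMIs of the transporter in RES thus lay in cells with Arg1, while Gatm, pooled over classes, kept a low level outside them.

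For the polyamine enzymes the same contrast gave log2 ratios of 1.51 (1.28 to 1.74) for Odc1, 1.37 (1.10 to 1.65) for Srm, 0.85 (0.66 to 1.03) for Sms and -1.22 (-1.27 to -1.17) for Sat1. Sat1 stood at 478 CPM in the cells with Arg1 and 1114 CPM in the cells without. Ass1 did not differ beyond counting error, with 25.7 CPM in the cells with Arg1 and 25.5 CPM in the cells without, a log2 ratio of 0.01 (-0.25 to 0.27). Arg2 had 10 UMIs in the cells with Arg1 and 45 UMIs in the cells without, a log2 ratio of -1.56 (-2.72 to -0.55). Oaz1, the antizyme that inhibits ornithine decarboxylase, was level at 939.6 CPM in the cells with Arg1 and 949.7 CPM in the cells without.

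The groups also differed in other ways. The C1q macrophages made up 45.2% of the cells with 20 or more Arg1 UMIs and 3.73% of those without, and the median depth before thinning was 11468 UMIs in the cells with 20 or more and 9152 UMIs in those without. The part of depth in these ratios was not tested. Within classes the contrast of 3 or more against none kept its direction for Gatm, at a log2 ratio of 4.70 in classical monocytes, 4.66 in nonclassical monocytes and 2.15 in C1q macrophages, and for Sat1, at -0.89, -1.18 and -1.40. Odc1 gave 1.01 (0.64 to 1.38) in classical monocytes, 1.77 (1.19 to 2.36) in nonclassical monocytes and 1.39 (0.59 to 2.32) in C1q macrophages. Srm gave 0.98 (0.48 to 1.47) in classical monocytes and 1.09 (0.37 to 1.80) in nonclassical monocytes, but 0.16 (-0.49 to 0.87) in C1q macrophages. Sms gave 1.17 (0.84 to 1.5) in classical monocytes, 0.75 (0.12 to 1.45) in C1q macrophages and 0.16 (-0.22 to 0.54) in nonclassical monocytes, where the interval included 0.

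The 9 Ctrl cells with 3 or more Arg1 UMIs after thinning gave like values on few counts. Gatm had 38 UMIs and 426 CPM in these cells and 24.6 CPM in the 1133 Ctrl cells without Arg1, a log2 ratio of 4.11 (3.57 to 4.62). Of these Gatm UMIs, 35 were in 5 C1q macrophages, a class in which Gatm stood at 849 CPM in cells with Arg1 and 137 CPM in cells without. Slc7a2 had 28 UMIs in these cells and 7 UMIs in the cells without Arg1, and 21 of the 28 came from 1 nonclassical monocyte. Sat1 stood at 460.0 CPM in these cells and 1182 CPM in the cells without Arg1, a log2 ratio of -1.36 (-1.84 to -0.92). Of the 10 Ctrl cells with 10 or more Arg1 UMIs before thinning, 8 had a Gatm UMI and 4 had a Slc7a2 UMI. The rare Ctrl cells with Arg1 thus also had more Gatm and Slc7a2 and less Sat1 than Ctrl cells without it, with wide intervals.

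RES and Ctrl were next compared in the cells that had no Arg1 UMI after thinning. Gatm, 5.47-fold higher in RES over all monocytes and macrophages, stood at 20.1 CPM in 1341 RES cells and 24.6 CPM in 1133 Ctrl cells without Arg1, a log2 ratio of -0.29 (-0.56 to -0.02). Odc1 was at 19.95 CPM in RES and 19.4 CPM in Ctrl, a log2 ratio of 0.04 (-0.25 to 0.33), and Srm at 14.6 CPM in RES and 13.8 CPM in Ctrl, a log2 ratio of 0.08 (-0.26 to 0.43). Slc7a2 had 10 UMIs in RES and 7 UMIs in Ctrl. Sat1 was at 1114 CPM in RES and 1182 CPM in Ctrl, a log2 ratio of -0.09 (-0.12 to -0.05), against -0.45 over all cells. Pooled over classes, the cells without Arg1 thus did not show the higher RES levels of Gatm, Slc7a2, Odc1 and Srm, and the gap in Sat1 was smaller. Within classes there were exceptions. In classical monocytes without Arg1, Odc1 stood at 22.8 CPM in RES and 16.5 CPM in Ctrl, a log2 ratio of 0.47 (0.02 to 0.94), and Sat1 at 833 CPM in RES and 929 CPM in Ctrl, a log2 ratio of -0.16 (-0.22 to -0.09). In C1q macrophages without Arg1, Srm had 22 UMIs in RES and 15 UMIs in Ctrl, or 44.8 CPM in RES and 20.6 CPM in Ctrl, a log2 ratio of 1.12 (0.11 to 2.17). In the cells with no leading subset and no Arg1, Gatm stood at 55.0 CPM in RES and 32.0 CPM in Ctrl, a log2 ratio of 0.78 (0.24 to 1.33). From the thinned UMIs alone, Sat1 was higher in RES in these cells, at 965 CPM in RES and 801 CPM in Ctrl. Its log2 ratio was 0.27 (0.01 to 0.52). The intervals of Gatm in classical and nonclassical monocytes and C1q macrophages without Arg1 all included 0.

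Ass1 and Sms were the exceptions. Ass1 stood at 25.5 CPM in RES and 40.4 CPM in Ctrl cells without Arg1, a log2 ratio of -0.66 (-0.89 to -0.44), as large as over all cells. Sms stood at 37.1 CPM in RES and 51.2 CPM in Ctrl cells without Arg1, a log2 ratio of -0.47 (-0.66 to -0.27), where over all cells it was level. In classical monocytes without Arg1 both were lower in RES, Ass1 at 22.9 CPM in RES and 40.1 CPM in Ctrl and Sms at 26.8 CPM in RES and 45.6 CPM in Ctrl. In nonclassical monocytes without Arg1 both intervals included 0. The cells without Arg1 had a different makeup in the libraries, with classical monocytes 44.9% of them in RES and 38.5% in Ctrl, C1q macrophages 3.73% in RES and 8.21% in Ctrl, and cells with no leading subset 8.58% in RES and 17.3% in Ctrl. Taking instead the cells with no Arg1 UMI before thinning gave log2 ratios of -0.74 for Ass1, -0.50 for Sms and -0.07 for Sat1.

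**Figure D5:**
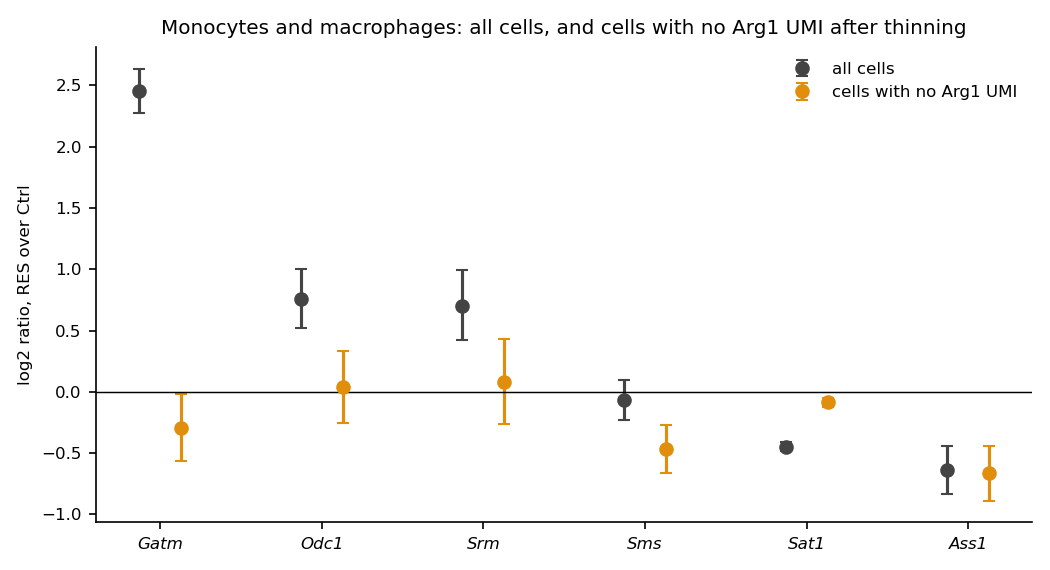
log2 ratio of RES over Ctrl for 6 genes in all monocytes and macrophages (dark points) and in those with no Arg1 UMI after thinning to 2000 UMIs (orange points); bars are exact 95% conditional binomial intervals. Gatm is at 2.45 over all cells and -0.29 in cells without Arg1, Odc1 and Srm lie near 0 in cells without Arg1, and Ass1 is at -0.64 and -0.66.

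Across the 2053 thinned RES monocytes and macrophages, Pearson's r with Arg1 was 0.475 for Gatm, 0.329 for Slc7a2, 0.131 for Odc1, 0.121 for Srm and -0.352 for Sat1. These are descriptions over cells that share 1 library, and in sparse counts the values near 0.1 say little. Of 1467 genes at 100 CPM or more, the 10 most like Arg1 were Fn1 (r 0.766), Mif (0.675), Plin2 (0.586), Srgn (0.582), Rbpj (0.552), Pgk1 (0.545), Ctsd (0.522), Ccl9 (0.518), Tpi1 (0.515) and Spp1 (0.512). Gatm ranked 16 in this order and Sat1 ranked 1445, and the median gene had an r of 0.00491. In Ctrl, where few cells had Arg1, the same 10 genes had r between 0.108 and 0.244. Fn1 encodes fibronectin, Spp1 osteopontin, Plin2 a lipid droplet protein, and Pgk1 and Tpi1 are glycolytic enzymes.

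Beyond these 10 genes, the arginine, creatine, nitric oxide, proline, polyamine and hypusine pathways were followed through 57 further genes, of which 24 reached 20 CPM in monocytes and macrophages. None was 1.5-fold higher in RES and 1 was lower, where 4.75% and 3.28% of all genes were. The lower one was Padi2, a peptidylarginine deiminase, with 22.6 CPM in RES and 43.5 CPM in Ctrl. Their median log2 ratio was 0.07, against 0.04 over all genes at that level. Slc7a1, the other common arginine transporter, stood at 27.3 CPM in RES and 16.01 CPM in Ctrl, and Oat, which turns ornithine toward proline, at 43.9 CPM in RES and 30.9 CPM in Ctrl. The antizyme gene Oaz1 stood at 940.1 CPM in RES and 925 CPM in Ctrl, and Azin1, the antizyme inhibitor, at 81.5 CPM in RES and 59.2 CPM in Ctrl. Eif5a, the factor that carries the spermidine-derived hypusine, stood at 515 CPM in RES and 345 CPM in Ctrl.

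In C1q macrophages 6 of 23 such genes were higher in RES and 4 were lower, beside 14.6% and 14.8% of all genes, and their median log2 ratio was -0.02, against 0.02 over all genes. The higher ones were Slc7a1 (44.6 CPM in RES, 17.9 CPM in Ctrl), Eif5a (719.9 CPM in RES, 326 CPM in Ctrl), Azin1, Oaz2, the spermine oxidase Smox and Gch1, the first enzyme of tetrahydrobiopterin synthesis. The lower ones were the creatine kinase Ckb (49.1 CPM in RES, 153 CPM in Ctrl), the polyamine oxidase Paox, the polyamine exporter Atp13a2 and the lysosomal arginine transporter Slc38a9. Creatine kinase and Gatm therefore went opposite ways in these macrophages.

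Among genes listed as regulators of Arg1 or Nos2, a few are given here as examples chosen after their values were seen, and not every one past 1.5-fold is given. Of the 12 on the list, 11 reached 20 CPM in monocytes and macrophages, and most of these were not 1.5-fold apart. Their median log2 ratio was 0.19, against 0.04 over all genes at that level. Hif1a, the oxygen-regulated factor, stood at 272 CPM in RES and 107 CPM in Ctrl, and Cebpb, a factor that acts on the Arg1 enhancer in mouse macrophages, at 1980 CPM in RES and 1018 CPM in Ctrl. Irf1, a factor that drives Nos2 after interferon, was lower in RES, at 51.9 CPM in RES and 155 CPM in Ctrl.

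Markers of other cells were read in the same monocytes and macrophages. The 8 Kupffer cell markers summed to 21.8 CPM in RES and 24.2 CPM in Ctrl, with 8 of 8 seen in RES and 7 of 8 in Ctrl (Marco at 0). Over all monocytes and macrophages, markers of resident Kupffer cells were thus sparse in both. In C1q macrophages, where their sum was highest, they stood at 68.4 CPM in RES and 178 CPM in Ctrl. Group 2 innate lymphoid cells are another source of Arg1 in mice, and 6 of their 8 markers were seen in each library, summing to 11.3 CPM in RES and 7.89 CPM in Ctrl, with Il13 and Il5 at 0 in both. Cell cycle markers summed to 23.9 CPM in RES and 74.5 CPM in Ctrl, and NK markers to 50.3 CPM in RES and 85.5 CPM in Ctrl. The part of both in the ratios was not tested. Of these monocytes and macrophages, 9 in RES and 8 in Ctrl showed 3 or more of the 8 cell cycle markers.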

How the data were processed

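Messenger RNA was counted in 2 droplet libraries, RES and Ctrl, each from the pooled cells of 5 mice. Per the labels, 10x Chromium 3′ v2 kits and an Illumina HiSeq X were used. The authors deposited raw UMI counts per gene and barcode, without normalization. Cell Ranger 3.1.0 is named per the file headers, while bcl2fastq and the mm10 build come from the submitters' processing notes; which gene models were counted is not given in the sources used here.

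From the counts, 121 RES and 245 Ctrl barcodes with under 200 genes or over 10% mitochondrial UMIs were left out, and the highest Scrublet scores were removed at 0.8% per 1000 barcodes (142 RES, 102 Ctrl; scanpy 1.11.5). A cell joined a lineage with at least 3 of 8 markers and a lead of 2, and a subset with a lead of 1. At these limits stood 194 RES and 224 Ctrl gated cells, while 143 RES and 228 Ctrl ungated cells were 1 marker short. For shares, cells were thinned to 2000 UMIs, which left out 54 RES and 67 Ctrl monocytes and macrophages with fewer. Intervals are exact Poisson, Clopper-Pearson and conditional binomial intervals at 95% (scipy 1.17.1) and cover counting error only. The functions were tested on simulated data.

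Named genes were the 10 genes of the set, pathway genes 1.5-fold or more apart (up to 8 each way) in monocytes and macrophages, and the 10 genes with the highest Pearson correlation with Arg1 in RES. Further genes with values in the text, such as Oaz1, Oat, Slc7a1, Eif5a and Azin1, were chosen after their values were seen. The genes, lists and marker gates were chosen with earlier results of these data known. Levels in cells grouped by Arg1 were taken from the thinned UMIs at first, and from all UMIs of the same cells once the thinned values proved imprecise. Amd1 and Amd2 are near-identical and are not compared, and a processed copy of Sms in the genome can share its reads. Alternatives covered the gates, doublet and mitochondrial filters, thinning depth, scaling, Alb-positive cells and shared barcodes. A gene on the list of regulators is not reported here.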

Additional observations from a re-analysis of the deposited data

Results flagged for a closer look

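By UMI sums, polyamine enzymes differed between RES and Ctrl in opposite directions in 2 classes, with counting intervals on opposite sides of 0. The difference between the classes was not tested. For Odc1 the log2 ratio of RES over Ctrl was 0.83 in C1q macrophages and -0.37 in NK cells, a gap of 1.20, and in classical monocytes it was likewise 0.83, again 1.20 above NK cells. For Srm it was 0.88 in C1q macrophages and -0.52 in NK cells, a gap of 1.40. For Sms it was 0.90 in C1q macrophages, -0.36 in classical monocytes and -0.39 in NK cells, which puts C1q macrophages 1.26 above classical monocytes and 1.29 above NK cells. With each thinned cell given equal weight, the Odc1 ratio was 0.16 in classical monocytes and 1.14 in C1q macrophages, and both intervals included 0. So did those of Sms, at -0.34 and 1.12 in the same classes. The interval of Srm in C1q macrophages (1.497) stayed above 0.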

How the results depend on the processing

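No paired analysis was possible because each group is 1 library and the labels give no shared replicate numbers. Under the alternatives run, 219 of 244 values stayed within the counting interval of the reported value or within 1.5 times its count, and 25 moved. No value whose interval excluded 0 changed sign, while Sms (reported log2 ratio -0.07) ran from -0.18 to 0.08, the RES minus Ctrl share of cells with an Sms UMI from -1.12 to 0.90 percentage points, and Ass1 between RES cells with and without Arg1 (reported 0.01) from -0.19 to 0.37. The log2 ratio of Arg1, reported as 4.84, was 5.12 with the stricter gate of 4 markers and a lead of 3, 4.66 with doublet scores not used, 4.70 without cells with an Alb UMI, and 4.97 without the shallower copies of shared barcodes. The RES minus Ctrl difference in thinned cells with an Arg1 UMI, reported as 33.4 percentage points, was 37.0 points after thinning to 4000 UMIs. With 1 CPM added, 6 genes of the set were 1.5-fold apart, against 3 reported. The number of pathway genes 1.5-fold apart in monocytes and macrophages, reported as 1, was 3 with the stricter gate, 2 without cells with an Alb UMI, 2 with no filter on low genes, 4 with 1 CPM added, and 4 without cells with a UMI of Flt3 or Zbtb46; the cause was not tested. The log2 ratio of Gatm between RES cells with and without Arg1 ranged from 4.27 to 4.80 over its alternatives, and that of Odc1 from 1.41 to 2.24. Arg1 in RES B cells went with monocyte and macrophage markers, at 1326 CPM over all B cells and 17.0 CPM in those with at most 2 such markers. Scaling by the median gene moved ratios by 0.02 on the log2 scale. Nos2, Arg2 and Ctrl Slc7a2 are limited by few UMIs.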
